A study of Mus musculus with 18 samples.

Results

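Cells take up iron, hold it, move it out again and recover it from heme, and 10 mouse genes that carry out or control these steps were described across the 4 RNA-seq groups of a study of the histone methyltransferase Setd2 in a mouse model of myelodysplastic syndrome. The genes were chosen by name, as the rows of the deposited table with the symbols Tfrc, Slc25a37, Abcb10, Slc40a1, Fth1, Ftl1, Ireb2, Aco1, Hmox1 and Blvrb, and they make up 10 of its 53946 genes. The series holds 18 samples, of which 12 are RNA-seq libraries in 4 groups of 3, 4 are whole-genome bisulfite libraries with 1 for each of the same groups, and 2 are H3K36me3 ChIP-seq libraries. All mice are labelled C57BL/6, and their ages are not stated in the labels. The AML group was C-Kit+ cells from the spleen of NHD13/Setd2 KO mice with acute myeloid leukemia. The KO group was hematopoietic stem and progenitor cells (HSPCs) from the bone marrow of NHD13/Setd2 KO mice. Both carry the NUP98-HOXD13 (NHD13) fusion transgene and the Setd2 deletion made by Mx1-Cre, which interferon induces and which is not limited to blood stem cells. The NHD13 group was marrow HSPCs with the transgene and floxed, undeleted Setd2 alleles. The WT group was marrow HSPCs without the transgene or floxed alleles, so the NHD13 and WT groups differ in both. AML and KO libraries differ in stage, in tissue and in sorted population, which cannot be told apart here. The ChIP-seq libraries were C-Kit+ spleen cells of NHD13/Setd2 KO mice with leukemia and of NHD13 mice with leukemia.

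Iron bound to transferrin enters a cell through the transferrin receptor and is carried into mitochondria, where heme and iron-sulfur clusters are made, while the surplus is kept in ferritin or leaves through ferroportin. The iron regulatory proteins sense cell iron and bind RNA elements that stabilise the transferrin receptor mRNA and hold back translation of the ferritin and ferroportin mRNAs, so the protein levels of these genes are set in large part after the mRNA is made. In marrow, developing red cells take up most of the iron, and macrophages recover it by breaking down the heme of old red cells.

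The RNA libraries held 18673704 to 20577958 counts in AML, 20436804 to 28127686 in KO, 22243002 to 24766705 in NHD13 and 22115101 to 23767776 in WT. Nothing in the labels tells whether replicate libraries are different mice, and p-values therefore cover only the variation among the libraries at hand, part of which may be technical. Setd2, the deleted gene, stood at 179 to 187 CPM in AML, 29.2 to 34.9 CPM in KO, 31.5 to 34.6 CPM in NHD13 and 37.2 to 45.2 CPM in WT, and did not pass the test between KO and NHD13 (log2 fold change -0.05, adjusted p = 0.685). The counts are of the whole gene, reads outside the deleted part included, so they do not check the deletion, and directions below follow the labels. Xist, expressed from the inactive X chromosome of females, was at most 0.0979 CPM in the AML and KO libraries and 53.9 to 229 CPM in the NHD13 and WT libraries. Sex and the Setd2 label therefore cannot be told apart. Kit, which encodes the sorted surface receptor, stood at 29.5 to 30.2 FPKM in AML, 9.93 to 10.9 FPKM in KO, 6.36 to 7.07 FPKM in NHD13 and 11.7 to 12.5 FPKM in WT. The 9 stem and progenitor markers summed to 130 to 133 FPKM in AML, 68.4 to 72.5 in KO, 13.3 to 13.9 in NHD13 and 182 to 202 in WT, so the library groups labelled HSPC differed widely in markers of those cells. Expression levels below are CPM, counts scaled per library size with TMM factors, or FPKM. FPKM divides counts by gene length and by the library total, without TMM factors. It is used wherever levels of different genes are compared or summed. The TMM factors ran from 0.798 to 1.25, so groups can compare differently in FPKM and in CPM.

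In the transgenic marrow, 7 of the 10 genes rose and none fell (NHD13 against WT, adjusted p below 0.05 in edgeR's quasi-likelihood test), where 25.3% of all 16233 genes tested rose and 28.7% fell. Their median log2 fold change was 0.52, and that of all genes tested was -0.04. The 7 were Tfrc, Slc25a37, Abcb10, Slc40a1, Ftl1, Hmox1 and Blvrb, and Slc40a1, the iron exporter ferroportin, rose most, by 3.91-fold. Between KO and NHD13, 4 genes rose (Aco1, Fth1, Ftl1 and Blvrb) and 4 fell (Tfrc, Abcb10, Slc40a1 and Hmox1), where 20.6% of all genes rose and 20.3% fell. Their median was -0.03, against 0.02 for all genes. Slc40a1 fell most, by 1.96 on the log2 scale.

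Between the leukemic spleen cells and the KO marrow, 6 genes rose and 3 fell (AML against KO), where 42.8% of all genes rose and 39.5% fell, so a call in this comparison was the rule among all genes. The member median was 0.46, against 0.07 for all genes. Slc25a37, Ireb2 and Hmox1 were 8.14-fold, 5.80-fold and 4.50-fold higher in AML, and Fth1, Ftl1 and Blvrb were 14.8-fold, 6.92-fold and 38.8-fold lower. In KO against WT, 6 genes rose and 1 fell, where 17.2% of all genes rose and 20.0% fell. The comparisons share libraries, so a gene's rise in one and fall in the next are not independent.

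The libraries of the groups compared did not overlap for 6 of the 10 genes between NHD13 and WT, where this held for 56.0% of all genes. The same was seen for 8 genes between KO and NHD13 (49.8% of all genes), for all 10 between AML and KO (85.6%) and for 6 between KO and WT (46.0%). In none of these bulk libraries can fewer cells of a type be told apart from less RNA per cell.

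**Figure D1:**
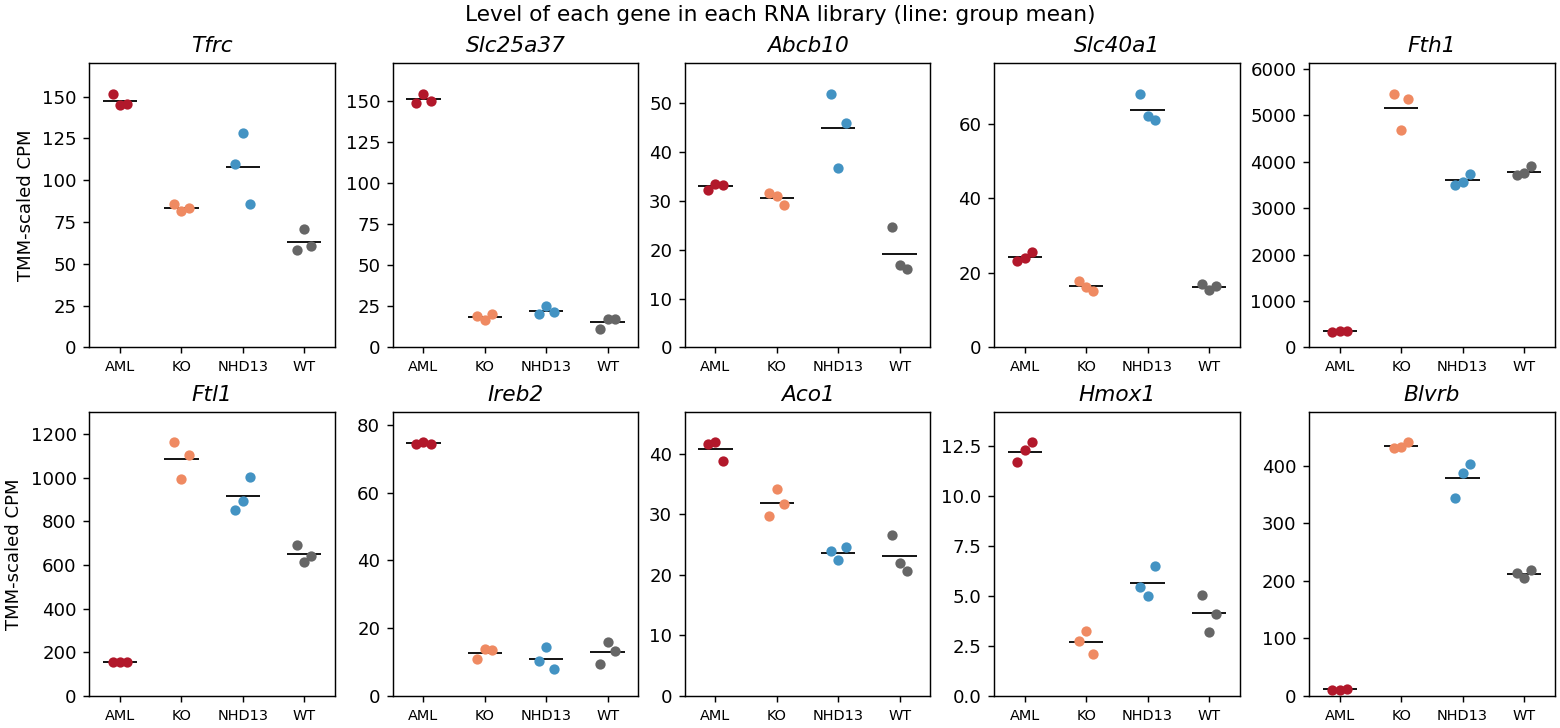
Expression of the 10 genes in each of the 12 RNA libraries, in TMM-scaled CPM on linear axes that start at 0 and differ between panels, with the groups AML, KO, NHD13 and WT; each point is 1 library and the horizontal bar is the mean of 3. Fth1, Ftl1 and Blvrb lie far lower in the 3 AML libraries than in the 9 others, Slc25a37, Ireb2 and Hmox1 lie higher there, and Slc40a1 is highest in the 3 NHD13 libraries.

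A pair of features of the data as a whole touch these values. The first is scaling: with library totals in place of TMM factors, the median log2 fold change of all genes was -0.42 in NHD13 against WT, 0.21 in KO against NHD13, 0.49 in AML against KO and -0.21 in KO against WT. In NHD13 against WT the genes that rose were then 1729 of 10358 called, against 4112 of 8764 with TMM factors. On that scale 4 members rose (Tfrc, Abcb10, Slc40a1 and Blvrb) and 3 fell, namely Fth1 (log2 fold change -0.46, adjusted p = 2.95e-06), Aco1 (-0.35, adjusted p = 0.00591) and Ireb2 (-0.62, adjusted p = 0.0138), beside the shift of -0.42 for the median gene. Over all genes, 10.7% rose and 53.2% fell on that scale. Library totals gave 4 members up and 2 down in KO against NHD13, where 33.8% of all genes rose and 12.6% fell. They gave 7 members up and 3 down in AML against KO (51.7% and 30.9% of all genes), and 5 up and 1 down in KO against WT (7.65% and 34.7%). The second is gene length. Between AML and KO the median log2 fold change was -1.05 for genes under 1 kb and 0.97 for genes of 8 kb and more, whereas between NHD13 and WT the same classes had medians of -0.06 and -0.12. With this trend removed by edgeR offsets, 3 members rose and 4 fell between AML and KO, where 38.8% of all genes rose and 41.4% fell. AML against NHD13 (-0.89 and 1.10) and AML against WT (-1.12 and 0.89) showed the same climb in these classes. The part of the trend in the members' changes was not tested further, and length-corrected values are given below beside the fold changes and counts of AML against KO.

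**Figure D2:**
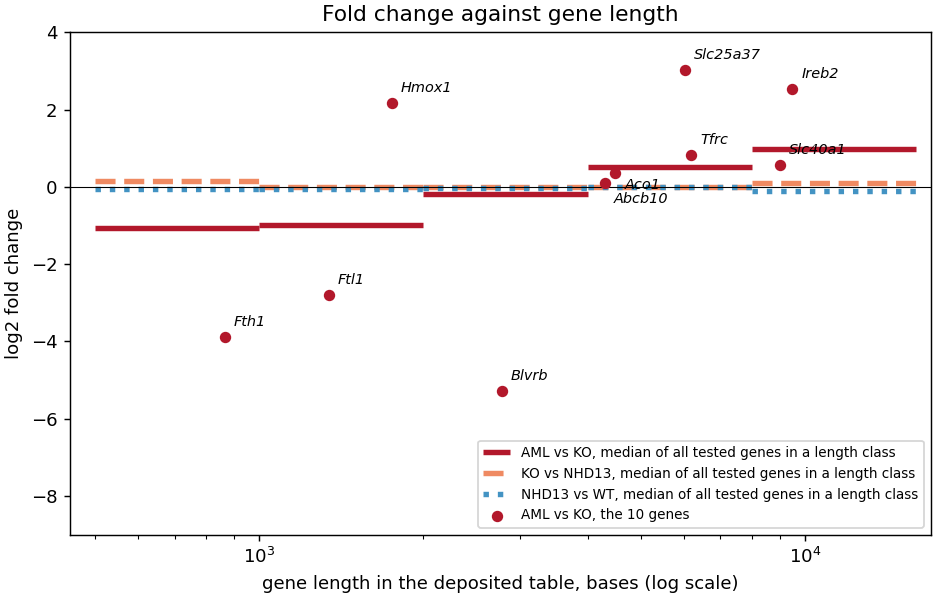
Log2 fold change (edgeR) against the gene length in the deposited table, in bases on a log axis; horizontal bars are medians of all tested genes in 5 length classes, of which the shortest and the longest are open-ended, for AML against KO, KO against NHD13 and NHD13 against WT, and points are the 10 genes in AML against KO. The AML against KO medians climb from -1.05 in the shortest class to 0.97 in the longest while those of KO against NHD13 and NHD13 against WT stay between -0.12 and 0.16, and Slc25a37, Ireb2, Hmox1, Fth1, Ftl1 and Blvrb lie well away from the median of their class.

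Among the uptake genes, Tfrc (chr16:32608896-32632794; gene spans here and below are RefSeq's on GRCm38.p6, whose table gave no exons or UTRs) encodes the transferrin receptor. It had 152, 145 and 146 CPM in AML, 86.0, 81.3 and 83.5 CPM in KO, 109.6, 128 and 86.1 CPM in NHD13 and 58.4, 70.6 and 60.9 CPM in WT. All 3 AML libraries were above every other library and all WT libraries below, while NHD13 was uneven and its lowest library lay just above KO. Tfrc rose in NHD13 over WT (log2 fold change 0.77 ± 0.11 SE, adjusted p = 3.01e-05) and in AML over KO (0.82 ± 0.11, adjusted p = 5.39e-06). With length corrected, the AML difference was 0.17 (adjusted p = 0.196) and the call was lost. The fall in KO below NHD13 was -0.37 ± 0.11 (adjusted p = 0.0146), a call that some single libraries left out were enough to lose. It was -0.22 (adjusted p = 0.0749) without NHD13 replicate 2. Without NHD13 replicate 1, KO replicate 2 or KO replicate 3 the call was also lost (adjusted p = 0.0576, 0.0667 and 0.0530). The estimate then moved little, at -0.35, -0.34 and -0.37. Tfrc was also higher in KO than in WT (0.40 ± 0.11, adjusted p = 0.0103), a call lost without WT replicate 1 (adjusted p = 0.0520) and with library totals (0.20, adjusted p = 0.129).

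Slc25a37 (chr14:69241848-69285544) encodes mitoferrin-1, which carries iron across the inner mitochondrial membrane and is best known from developing red cells. It stood at 149, 154 and 150.0 CPM in AML, 18.9, 16.8 and 20.1 CPM in KO, 20.2, 24.9 and 21.3 CPM in NHD13 and 11.02, 17.4 and 17.2 CPM in WT. The AML libraries stood far above all others, and the marrow groups lay close together. The rise in AML over KO was 3.02 ± 0.14 on the log2 scale (adjusted p = 1.79e-11) and 2.40 with length corrected. Slc25a28, the gene of mitoferrin-2, had a length-corrected log2 fold change of 2.99 in AML over KO (adjusted p = 8.73e-15 in edgeR). In NHD13 over WT Slc25a37 rose by 0.54 ± 0.14 (adjusted p = 0.0046), and this was 0.35 (adjusted p = 0.00247) without WT replicate 1, the lowest library. The call did not hold on library totals (0.16, adjusted p = 0.291). KO did not pass the test against NHD13 (-0.26, 95% interval -0.56 to 0.05, adjusted p = 0.166) or WT (0.29, adjusted p = 0.134).

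Abcb10 (chr8:123952459-123983122) is a transporter of the inner mitochondrial membrane that binds mitoferrin and is needed for heme synthesis in red cell precursors. It had 32.2, 33.6 and 33.2 CPM in AML, 31.7, 31.0 and 29.2 CPM in KO, 52.0, 36.7 and 46.0 CPM in NHD13 and 24.6, 16.95 and 16.1 CPM in WT. NHD13 was the highest group and WT the lowest, with no overlap between neighbouring groups. Abcb10 rose in NHD13 over WT (1.22 ± 0.14, adjusted p = 3.80e-06) and in KO over WT (0.67 ± 0.15, adjusted p = 0.00201), and it fell in KO below NHD13 (-0.55 ± 0.14, adjusted p = 0.00556). The fall did not pass on library totals (-0.37, adjusted p = 0.0701). AML and KO did not pass the test (0.11, 95% interval -0.20 to 0.41, adjusted p = 0.49). The estimate was -0.19 with length corrected, -0.082 with upper-quartile factors and 0.52 (adjusted p = 0.00712) on library totals, so neither its sign nor its call was stable across scalings.

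Slc40a1 (chr1:45908070-45926532), ferroportin, is the only known exporter of cellular iron. It had 23.1, 24.0 and 25.6 CPM in AML, 17.9, 16.3 and 15.0 CPM in KO, 68.1, 62.2 and 61.0 CPM in NHD13 and 17.01, 15.4 and 16.5 CPM in WT. NHD13 stood alone, with its lowest library well above the highest of any other group. The log2 fold change was 1.97 ± 0.09 in NHD13 over WT (adjusted p = 5.99e-13) and -1.96 ± 0.09 in KO below NHD13 (adjusted p = 1.24e-12). Between KO and WT it was 0.01 (95% interval -0.18 to 0.19, adjusted p = 0.963), and its sign turned on other scalings, with -0.19 on library totals. AML was higher than KO by 0.57 ± 0.09 (adjusted p = 8.19e-06), but with length corrected it was lower, at -0.31 (adjusted p = 0.00326), so the direction of this difference depends on the length trend.

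Markers of other cells were read beside Slc40a1, and not all moved the same way. The shares of all genes that rose and fell are given above for each comparison. The 11 neutrophil granule markers all rose in NHD13 over WT and all fell in KO below NHD13, and they summed to 26078 to 27025 FPKM in AML, 36827 to 39333 in KO, 116974 to 136264 in NHD13 and 20256 to 20956 in WT. Between AML and KO 7 of them rose and 4 fell, with or without length corrected, although the sum was lower in AML. Elane, the gene of neutrophil elastase, had 3065 to 3158 FPKM in AML and 17175 to 19880 FPKM in KO. Without it the sums were 22920 to 23907 FPKM in AML and 19453 to 19818 FPKM in KO. FPKM carries no TMM factor, and these factors were 1.22 to 1.25 in AML and 0.922 to 0.935 in KO. That gap is large enough to turn the order of the sums without Elane, so which is higher depends on the scaling. Iron-recycling macrophages are the classic site of ferroportin in marrow and spleen. Of the 11 markers of these cells that could be tested, 2 rose and 7 fell in NHD13 over WT, and the list summed to 26.2 to 27.4 FPKM in AML, 6.49 to 8.33 in KO, 11.4 to 11.7 in NHD13 and 20.1 to 26.6 in WT. Timd4 was listed at 0 in all 3 AML libraries, and Marco in all 3 WT libraries. The part of either cell type in the level of Slc40a1 was not tested.

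**Figure D3:**
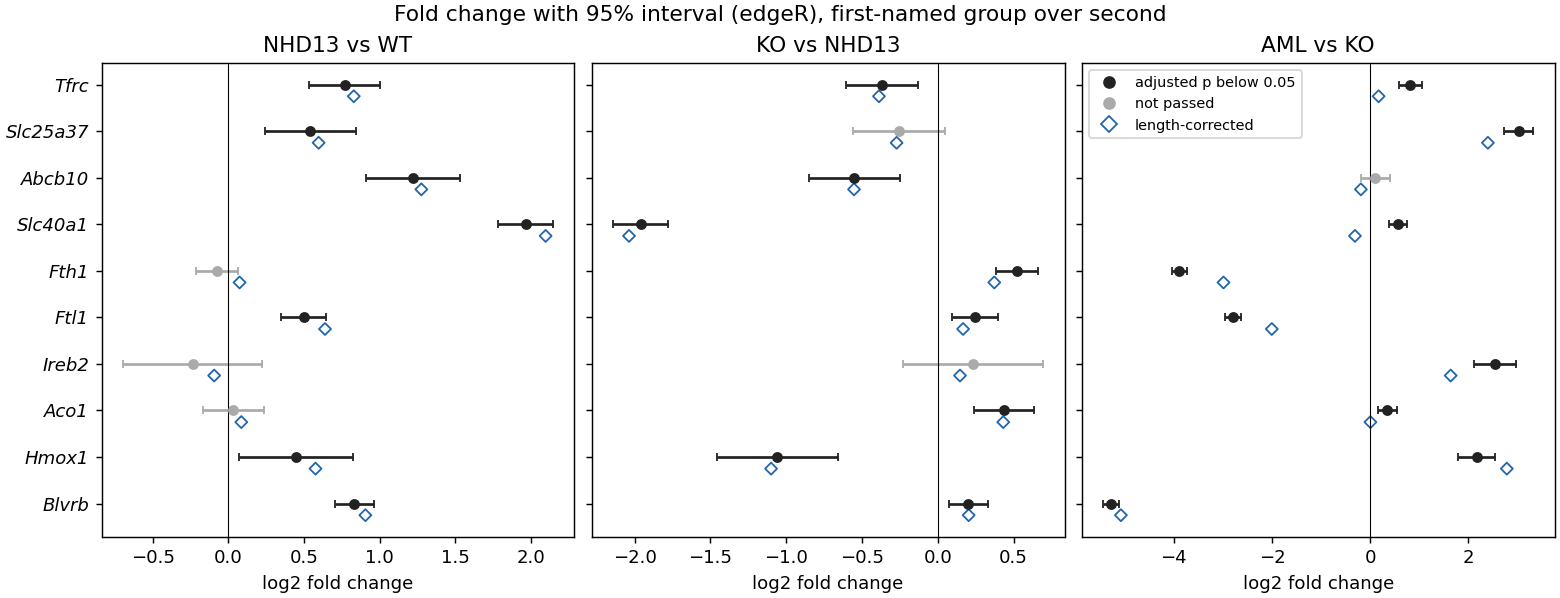
Log2 fold change of the 10 genes in 3 comparisons with 95% intervals (edgeR); black points passed an adjusted p of 0.05, grey points did not, and open diamonds are the length-corrected estimates. In NHD13 against WT and KO against NHD13 the diamonds stay close to the points, while in AML against KO they lie apart, at -0.31 beside 0.57 for Slc40a1 and at -2.99 beside -3.89 for Fth1.

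Iron storage was the most abundant part of the set. Fth1 (chr19:9980600-9985111) and Ftl1 (chr7:45457944-45459886) encode the heavy chain of ferritin, which oxidises iron, and its light chain, which helps lay down the mineral core. Per length, Fth1 averaged 499 ± 8.03 FPKM in AML, 5536 ± 424 in KO, 3390 ± 121 in NHD13 and 4658 ± 102 in WT (SD, n = 3 each), and it was the highest of the 10 genes in every group. The 10 genes together took 0.124% of all counts in AML, 0.590% to 0.674% in KO, 0.410% to 0.441% in NHD13 and 0.497% to 0.519% in WT, and Fth1 made up most of that in the marrow groups.

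Fth1 had 341, 359 and 348 CPM in AML, 5469, 4688 and 5347 CPM in KO, 3496, 3566 and 3735 CPM in NHD13 and 3709, 3756 and 3898 CPM in WT. KO was the highest group, NHD13 and WT overlapped, and AML lay far below all of them. The log2 fold change of AML over KO was -3.89 ± 0.07 (adjusted p = 2.40e-18), and -2.99 with length corrected. Fth1 rose in KO over NHD13 (0.52 ± 0.07, adjusted p = 3.19e-06) and over WT (0.45 ± 0.07, adjusted p = 2.75e-05). NHD13 against WT did not pass (-0.07, 95% interval -0.21 to 0.06, adjusted p = 0.367), unlike the value on library totals given above.

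Ftl1 followed with 158, 157 and 156 CPM in AML, 1163, 995 and 1105 CPM in KO, 851, 894 and 1004 CPM in NHD13 and 691, 614 and 643 CPM in WT. AML was again lowest and WT was the lowest marrow group. The log2 fold change of AML over KO was -2.79 ± 0.08 (adjusted p = 1.32e-16), and -2.00 with length corrected. Ftl1 rose in NHD13 over WT (0.50 ± 0.07, adjusted p = 9.36e-06), a call lost on library totals (0.11, adjusted p = 0.19), and in KO over WT (0.74 ± 0.07, adjusted p = 1.71e-07). The rise in KO over NHD13 was small (0.25 ± 0.07, adjusted p = 0.00936), the libraries overlapped, and the call was lost without KO replicate 1 (adjusted p = 0.0611), without NHD13 replicate 1 (adjusted p = 0.0591) and with length corrected (0.17, adjusted p = 0.0788).

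The chains did not keep one proportion. The FPKM ratio of Fth1 to Ftl1 was 3.35 to 3.53 in AML, 7.28 to 7.49 in KO, 5.75 to 6.36 in NHD13 and 8.31 to 9.47 in WT, with no overlap between any of the groups. The FPKM ratio of Fth1 to Tfrc, storage over uptake, was 16.1 to 17.6 in AML, 412 to 457 in KO, 199 to 310 in NHD13 and 380 to 457 in WT. On the log2 scale of the fit, Fth1 over Tfrc differed by -4.71 between AML and KO and by -3.16 with length corrected, and Fth1 over Ftl1 by -1.10 and, corrected, -0.98. Ferritin genes have many processed copies that can share reads with them. Rows named as Ftl1 copies held 0.706% to 1.84% of the counts of both in AML and 5.69% to 8.27% elsewhere, rows named as Fth1 copies held at most 0.166%, and adding them to the parent genes changed no call.

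The promoters of the 3 genes that were lowest in AML relative to KO are shown because they let the starts of these genes be compared letter by letter. The sequences are the 250 bases before the start of Fth1 at chr19:9982396-9982645 on the plus strand, of Ftl1 at chr7:45459887-45460136 on the minus strand and of Blvrb at chr7:27447728-27447977 on the plus strand, 5′ to 3′ from RefSeq on GRCm38.p6. Capitals mark the motifs GGGCGG (the GC box) and ATTGG (the reverse of the CCAAT box) on either strand, so CCGCCC and CCAAT count too.
Fth1: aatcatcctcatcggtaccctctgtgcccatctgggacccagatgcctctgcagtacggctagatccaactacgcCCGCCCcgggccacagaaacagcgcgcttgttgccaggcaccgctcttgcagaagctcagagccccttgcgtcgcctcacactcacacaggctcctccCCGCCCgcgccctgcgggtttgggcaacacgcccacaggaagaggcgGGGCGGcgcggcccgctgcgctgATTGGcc
Ftl1: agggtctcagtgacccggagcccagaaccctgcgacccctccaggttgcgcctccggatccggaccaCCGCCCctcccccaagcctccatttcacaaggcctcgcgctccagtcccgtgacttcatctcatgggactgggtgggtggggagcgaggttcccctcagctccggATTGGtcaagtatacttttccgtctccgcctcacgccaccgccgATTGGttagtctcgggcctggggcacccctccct
Blvrb: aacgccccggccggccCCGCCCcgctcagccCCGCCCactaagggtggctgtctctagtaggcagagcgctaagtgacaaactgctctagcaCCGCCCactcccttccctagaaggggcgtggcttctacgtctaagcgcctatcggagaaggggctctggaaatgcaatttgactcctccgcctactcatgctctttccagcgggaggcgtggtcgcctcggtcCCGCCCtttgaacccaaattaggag
Fth1 held 3 GC boxes and 1 ATTGG that ends close to the start, Ftl1 held 1 GC box and 2 ATTGG, and Blvrb held 4 GC boxes and no ATTGG or CCAAT. Of 32851 promoter windows of the same length, 32.7% held GGGCGG or its complement and 33.8% held ATTGG or its complement, so both motifs are common. TATAA, searched on both strands and present in 22.8% of windows, was in none of these 3. A further window listed for an upstream start of Fth1 held 1 TATAA. A match describes letters only.

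The iron regulatory proteins are encoded by Aco1 (chr4:40143265-40199009), whose product is a cytosolic aconitase when it carries an iron-sulfur cluster and binds RNA when it does not, and by Ireb2 (chr9:54862658-54912534), whose product is degraded when iron is plentiful. Aco1 had 41.6, 41.9 and 38.8 CPM in AML, 29.7, 34.2 and 31.8 CPM in KO, 23.9, 22.4 and 24.5 CPM in NHD13 and 26.6, 21.9 and 20.7 CPM in WT. The order was AML, KO and then NHD13 with WT, which overlapped. Aco1 rose in KO over NHD13 (0.44 ± 0.09, adjusted p = 0.00109) and over WT (0.47 ± 0.09, adjusted p = 0.000647). The rise in AML over KO (0.35 ± 0.09, adjusted p = 0.00176) was 0.01 (adjusted p = 0.946) with length corrected and 0.16 (adjusted p = 0.0757) with upper-quartile factors. NHD13 against WT gave 0.03 (95% interval -0.17 to 0.23, adjusted p = 0.804), with the sign turned on library totals as given above.

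Ireb2 had 74.5, 74.9 and 74.5 CPM in AML, 11.01, 14.0 and 13.4 CPM in KO, 10.3, 14.6 and 8.06 CPM in NHD13 and 9.51, 15.9 and 13.3 CPM in WT. The AML libraries stood apart and the 3 marrow groups overlapped. The rise in AML over KO was 2.54 ± 0.20 (adjusted p = 7.45e-08) and 1.64 with length corrected. KO against NHD13 (0.23, adjusted p = 0.421) and NHD13 against WT (-0.24, adjusted p = 0.374) did not pass, but both passed without NHD13 replicate 2, at 0.50 (adjusted p = 0.0477) and -0.49 (adjusted p = 0.0387). The FPKM ratio of Aco1 to Ireb2 was 1.10 to 1.18 in AML, 4.98 to 5.68 in KO, 3.24 to 6.42 in NHD13 and 2.91 to 5.89 in WT, and the 3 AML ratios lay below all 9 marrow ratios. The log2 difference of this ratio between AML and KO was -2.18 in the fit and -1.63 with length corrected.

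Heme breakdown starts with heme oxygenase, which opens the ring and frees the iron, and goes on with biliverdin reductase. Hmox1 (chr8:75093618-75100593), the inducible oxygenase, averaged 8.62 ± 0.37 FPKM in AML, 1.43 ± 0.31 FPKM in KO, 2.63 ± 0.38 FPKM in NHD13 and 2.51 ± 0.62 FPKM in WT (SD, n = 3 each). By library it had 11.7, 12.3 and 12.7 CPM in AML, 2.74, 3.23 and 2.09 CPM in KO, 5.45, 4.98 and 6.48 CPM in NHD13 and 5.07, 3.20 and 4.11 CPM in WT. AML was highest and KO lowest, although 1 WT library lay below the highest of KO, and NHD13 and WT overlapped. Hmox1 rose in AML over KO (2.17 ± 0.18, adjusted p = 1.40e-09; 2.79 with length corrected) and fell in KO below NHD13 (-1.06 ± 0.19, adjusted p = 0.000186).

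The other differences of Hmox1 were weak. The rise in NHD13 over WT (0.45 ± 0.18, adjusted p = 0.0416) was 0.30 (adjusted p = 0.193) without WT replicate 2, and the call was also lost without NHD13 replicate 1, NHD13 replicate 3 or WT replicate 3 (adjusted p = 0.0610, 0.153 and 0.0771). On library totals it was 0.06 (adjusted p = 0.79). The fall in KO below WT (-0.61 ± 0.19, adjusted p = 0.0185) was lost without KO replicate 3 (adjusted p = 0.105) or WT replicate 1 (adjusted p = 0.0981). Macrophages that clear red cells are rich in heme oxygenase. Of their 11 tested markers, 8 rose and none fell in AML over KO (7 and none with length corrected). Of all genes, 42.8% rose and 39.5% fell. The part of these macrophages in the AML level of Hmox1 was not tested.

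Blvrb (chr7:27447978-27465981) encodes biliverdin reductase B, an enzyme abundant in red cells. It had 11.2, 10.6 and 11.9 CPM in AML, 431, 433 and 441 CPM in KO, 344, 388 and 402 CPM in NHD13 and 214, 206 and 218 CPM in WT. The 4 groups were in the order KO, NHD13, WT and AML with no overlap between neighbours, and the drop in AML below KO was the largest among the 10 genes. The log2 fold change of AML over KO was -5.28 ± 0.08 (adjusted p = 1.95e-19) and -5.08 with length corrected. Blvrb rose in NHD13 over WT (0.83 ± 0.06, adjusted p = 1.36e-09) and in KO over WT (1.03 ± 0.06, adjusted p = 2.60e-10). The step in KO over NHD13 was 0.20 ± 0.06 (adjusted p = 0.0127), and it was 0.14 (adjusted p = 0.0875) without NHD13 replicate 1.

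Red cell markers moved in the same comparisons. Of 19 erythroid markers, 14 rose and 1 fell in NHD13 over WT, where 25.3% of all genes rose and 28.7% fell. In KO against NHD13 3 rose and 5 fell, close to the shares of all genes, 20.6% and 20.3%. In AML against KO 3 of the markers rose and 15 fell, beside 42.8% and 39.5% of all genes. With length corrected 1 of the markers rose and 16 fell, beside 38.8% and 41.4% of all genes. They summed to 110 to 121 FPKM in AML, 516 to 537 in KO, 458 to 481 in NHD13 and 331 to 389 in WT. FPKM carries no TMM factor, so these sums do not settle the order of KO and NHD13. In the TMM-scaled fit the median log2 fold change of the markers was -0.10 in KO against NHD13. Most of the AML sum was Hbb-bt, an adult beta-globin gene, with 85.1 to 94.5 FPKM in AML and 10.1 to 11.4 FPKM in KO, and the other 18 markers summed to 25.04 to 26.79 FPKM in AML and 506 to 527 FPKM in KO. The erythroid sum was lowest in AML, and the log2 fold change of Slc25a37 in AML over KO was 3.02, or 2.40 with length corrected. The part of red cell precursors in the levels of Blvrb, Tfrc, Slc25a37 and Abcb10 was not tested.

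Other genes of iron and heme metabolism were counted from 4 lists. The shares of all genes that rose and fell, given beside the red cell markers, apply to these counts too. Of 13 tested genes of cellular iron import and export, 6 rose and 3 fell in NHD13 over WT, 4 rose and 3 fell in KO against NHD13, and 6 rose and 4 fell in AML against KO. With length corrected the AML count was 5 up and 6 down, with a median log2 fold change of -0.13, against 0.32 uncorrected. Lcn2, which encodes the siderophore-binding lipocalin of neutrophil granules, averaged 1213 ± 4.24 CPM in AML, 96.9 ± 2.26 CPM in KO, 1815 ± 137 CPM in NHD13 and 38.7 ± 7.2 CPM in WT (SD, n = 3 each). Its log2 fold change was 5.55 ± 0.12 in NHD13 over WT, -4.23 ± 0.11 in KO below NHD13 and 3.65 ± 0.11 in AML over KO, or 3.90 with length corrected. Hfe, whose product controls iron sensing with the transferrin receptors, moved the same way as Slc40a1, at 1.31 ± 0.09 in NHD13 over WT and -1.06 ± 0.09 in KO below NHD13. Tfr2, the second transferrin receptor, rose in KO over NHD13 by 0.90 ± 0.10. Cd163, the macrophage receptor for hemoglobin bound to haptoglobin, fell in NHD13 below WT by 2.35 on the log2 scale.

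Lrp1, which takes up heme bound to hemopexin, averaged 65.4 ± 3.39 CPM in AML and 5.19 ± 0.75 CPM in KO, a log2 fold change of 3.64 ± 0.14, or 2.53 with length corrected. Of 8 tested genes of storage, chaperones and IRP control, 4 rose and 1 fell in NHD13 over WT, 1 rose and 3 fell in KO against NHD13, and 3 rose and 4 fell in AML against KO (3 and 5 with length corrected). Of 18 tested genes of heme transport, breakdown and its control, 5 rose and 3 fell in NHD13 over WT, 3 rose and 7 fell in KO against NHD13, and 5 rose and 10 fell in AML against KO (3 and 10 with length corrected). That list holds 5 textbook targets of the oxidant-sensing factor Nrf2, which also acts on Hmox1. Of these, Nqo1, Gclm and Srxn1 fell in AML below KO by 4.53, 2.80 and 1.81 on the log2 scale, with -3.83, -3.46 and -1.63 when length was corrected. Txnrd1 rose by 0.48 but was at -0.27 (adjusted p = 0.000275) with length corrected, and Gclc did not pass (-0.07, adjusted p = 0.668, and -0.20 with length corrected). Srxn1, Txnrd1 and Gclc were added after their values were seen, to give all 5. Abcg2, a heme and drug exporter, fell by 3.95, or by 4.78 with length corrected. Fech, which inserts iron into heme, rose in NHD13 over WT by 1.17 ± 0.07.

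Iron-sulfur cluster assembly is the other main use of mitochondrial iron. Of its 14 genes, 1 rose and 11 fell in AML against KO with a median log2 fold change of -1.52, against 0.07 for all genes, and 1 rose and 12 fell with length corrected. In NHD13 over WT 7 rose and 1 fell, and in KO against NHD13 4 rose and 3 fell. Hscb, a co-chaperone of cluster assembly, rose in KO over NHD13 by 0.78 ± 0.07.

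The genes most like 4 members were ranked by Pearson r of log2 CPM over the 12 libraries among 8287 genes averaging at least 10 CPM. The nearest to Tfrc were Clcn3 (r = 0.985), Eif4g2 (0.981) and Top2a (0.979). The nearest to Slc25a37 were Ctdsp1 (0.998), Foxn2 (0.997) and Vps13c (0.997). The nearest to Slc40a1 were Scnn1a (0.990), Lyz2 (0.987) and Fmo5 (0.984), and the nearest to Hmox1 were Sh3bp5 (0.980), Arhgap25 (0.977) and Pam (0.976). With 4 groups of 3 libraries, such a value mostly describes the order and spacing of 4 group means.

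DNA methylation at the genes was read from the authors' deposited table of differentially methylated regions (DMRs) for each comparison, with 1 bisulfite library a group, no replicate and no coverage, so these are values without a test. A DMR was assigned to a gene within 5 kb. In the authors' deposited table for NHD13 against WT, 7 members had a DMR with lower methylation and 2 one with higher, where 50.6% of 20352 protein-coding genes had a lower and 25.7% a higher one. The authors' deposited table for KO against NHD13 gave 5 members a lower and 2 a higher DMR (25.9% and 35.7% of genes). For AML against KO, the authors' deposited table gave 2 members a lower and 5 a higher DMR (45.5% and 39.7% of genes). No DMR in any authors' deposited table lay within 5 kb of Hmox1, and none overlapped a listed promoter window of the 7 members that have one.

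Slc40a1 held DMRs inside the gene, all positions on mm10. In the authors' deposited table, methylation over chr1:45924370-45924816 was 56.3% in NHD13 and 79.8% in WT. Within that stretch, over chr1:45924492-45924616, it was 78.2% in KO and 56.9% in NHD13 in the authors' deposited table. NHD13, the group with the highest Slc40a1 mRNA, thus had the lower methylation in both comparisons, and both rest on the same NHD13 library. A different stretch, chr1:45925762-45926478 with 50 CpG sites, had 46.6% in AML and 16.8% in KO in the authors' deposited table. It lies close to the higher-coordinate edge of the gene. Neither a strand nor a promoter window was listed for Slc40a1, so whether that edge is the start was not settled here.

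Abcb10 held DMRs of both directions inside the gene. The authors' deposited table gave 62.8% in NHD13 and 90.8% in WT over chr8:123959369-123960246, and 86.2% in KO and 51.0% in NHD13 over chr8:123959598-123959784. A second stretch changed the other way in KO against NHD13, with 65.8% in KO and 84.5% in NHD13 over chr8:123971670-123971723 in the authors' deposited table. Over chr8:123959656-123959784 the authors' deposited table gave 65.8% in AML and 86.9% in KO. The largest difference at any member was also here, with 18.3% in NHD13 and 64.9% in WT over chr8:123980380-123981141 in the authors' deposited table.

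At Slc25a37 the steps went one way. Over chr14:69248555-69249701, with 76 CpG sites, the authors' deposited table gave 37.9% in NHD13 and 67.5% in WT, and over chr14:69249139-69249701 it gave 22.9% in KO and 54.4% in NHD13. The authors' deposited table for AML against KO held no DMR within 5 kb of Slc25a37, where the mRNA differed by 3.02 on the log2 scale, or 2.40 with length corrected. Tfrc had 10.2% in NHD13 and 48.1% in WT over chr16:32610381-32611087 inside the gene in the authors' deposited table. The heavy chain gene Fth1 had 36.8% in NHD13 and 64.3% in WT over chr19:9984546-9984963 in the authors' deposited table, while its mRNA did not pass the test in that comparison. Blvrb had 67.5% in AML and 40.0% in KO over chr7:27454639-27454928 inside the gene in the authors' deposited table.

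**Figure D4:**
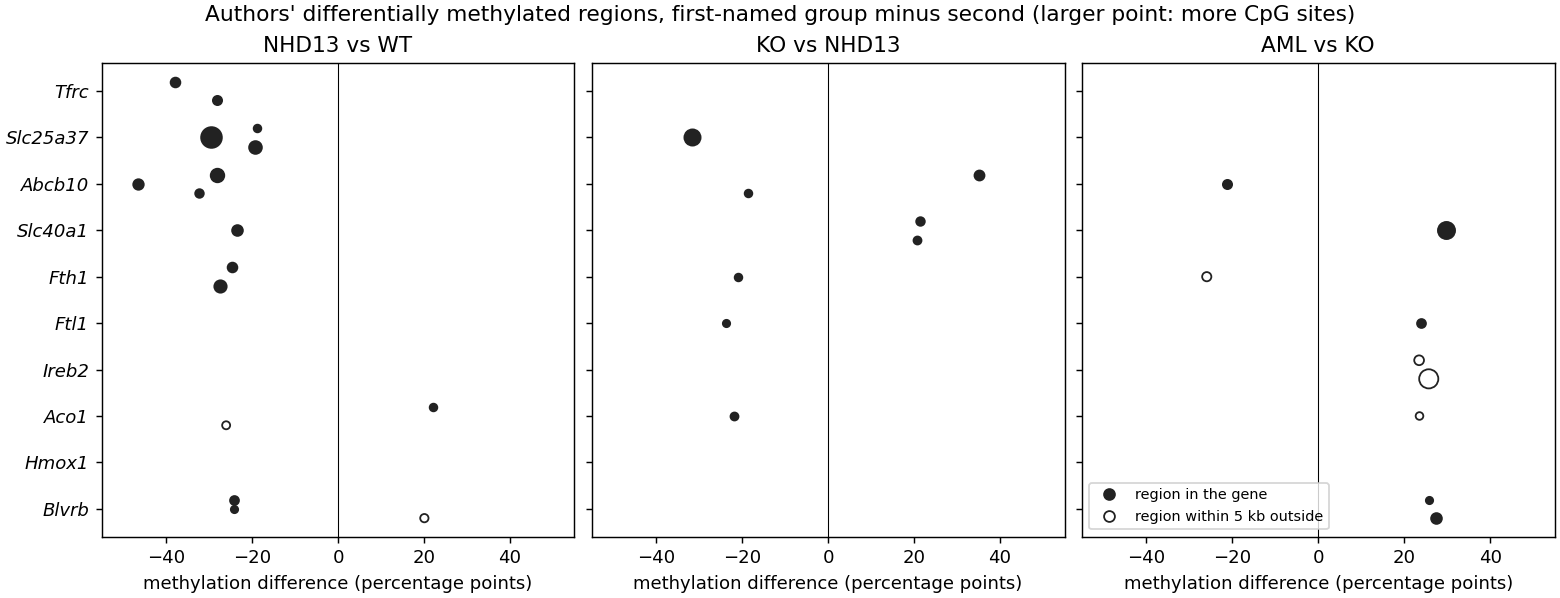
Methylation difference in percentage points (first-named group minus second) of each DMR assigned to a member, by gene and comparison, 1 bisulfite library a group; a larger point has more CpG sites, filled points lie in the gene and open points within 5 kb outside it. Points lie mostly below 0 in NHD13 against WT (14 of 16) and mostly above 0 in AML against KO (7 of 9), and Hmox1 has none. Of all DMRs, 47903 of 58684 were lower in NHD13 against WT, and 23571 of 106032 were higher in AML against KO.

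H3K36me3, the mark that Setd2 lays over transcribed gene bodies, was given as the authors' broad peaks from 1 ChIP library each, with 16902 peaks in NHD13/Setd2 KO leukemia and 30953 in NHD13 leukemia. Peaks touched 4 of the 10 genes in the KO leukemia, where 29.5% of protein-coding genes had one, and 7 of the 10 in the NHD13 leukemia, where 47.0% did. Neither depth nor input of the ChIP libraries is stated in the labels, the part of either in the number of peaks was not tested, and there is no replicate. The share of the Tfrc gene under peaks was 48.4% in KO leukemia and 88.6% in NHD13 leukemia. For Ireb2 it was 6.47% in KO leukemia and 93.0% in NHD13 leukemia, where 1 peak of 46603 bases ran along nearly the whole gene.

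Slc25a37, Abcb10 and Aco1 had no peak in KO leukemia, and 53.9%, 80.4% and 36.5% of the gene was covered in NHD13 leukemia. For the ferritin gene Fth1 the shares were 3.83% in KO leukemia and 24.0% in NHD13 leukemia. Its peaks, of 1699 bases in KO leukemia and 3577 bases in NHD13 leukemia, lie mostly beyond the gene. At Ftl1 the shares were 20.4% in KO leukemia and 63.5% in NHD13 leukemia, where the peak of 23211 bases runs past the gene. Slc40a1, Hmox1 and Blvrb had no peak in either list. Among all genes with a peak, the median share covered was 10.3% in KO leukemia and 59.3% in NHD13 leukemia, so lower coverage was general. No RNA library of the NHD13 leukemia was among the samples, so coverage and expression were not compared between the leukemias.

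**Figure D5:**
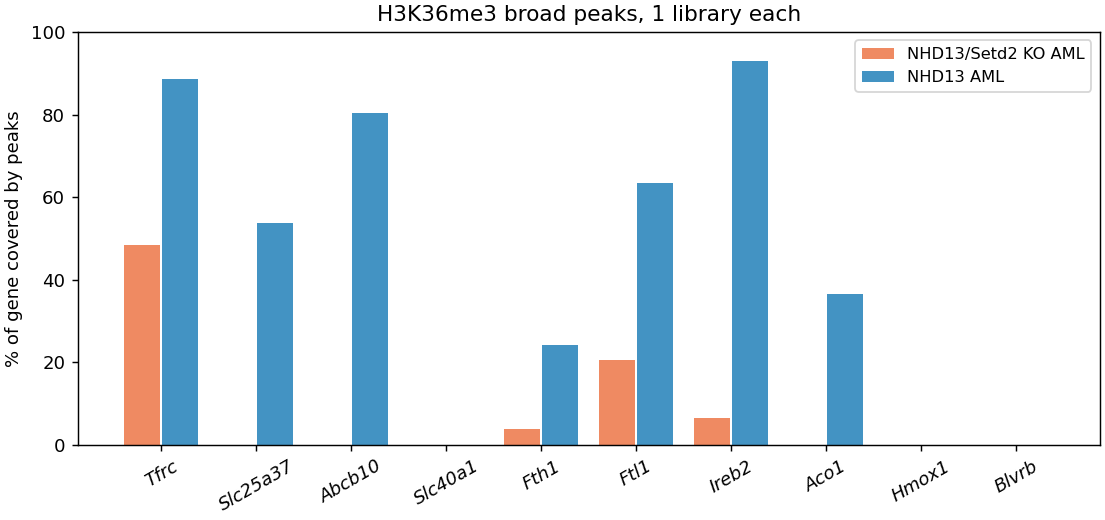
Percent of each gene covered by the authors' H3K36me3 broad peaks in NHD13/Setd2 KO leukemia and NHD13 leukemia, 1 ChIP library each. For all 7 genes with a peak the bar is shorter in KO leukemia, and Slc40a1, Hmox1 and Blvrb have none in either.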

How the data were processed

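RNA-seq, bisulfite and ChIP values were used as the authors deposited them. Raw counts per gene were deposited for 12 libraries. Per the submitters' processing notes, which give no roles, the tools include HISAT2 2.0.5, HTSeq 0.9.1, DESeq2 1.22.2, Bismark 0.19.0 and MACS2 2.1.1.20160309 on mm10. The FPKM values the authors deposited equal count over gene length and column total. Methylation levels of the deposited DMRs are a fraction per region, with a score, and are printed as percent; sides followed the order of names and were checked against shared libraries. Peaks deposited by the authors carry a score, a fold enrichment over background and −log10 p- and q-values. The DMR caller, counting strand and ChIP input are not stated in the labels or file headers.

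Counts were tested with edgeR 4.0.16 in R 4.3.3 (TMM, filterByExpr, 1 robust quasi-likelihood model over 12 libraries, a mean per group, Benjamini-Hochberg over 16233 genes). All 10 members passed the filter, with 44 to 123194 counts per library. The SE is the fold change over the square root of F. Alternatives used DESeq2 1.42.0 and limma 3.58.1. The length correction subtracts a smooth of log2 ratio on gene length per library. The scripts were tested on simulated data. Gene positions, promoters and motifs used RefSeq tables of GRCm38.p6, which is mm10. Members, lists and tests were chosen with earlier results of these data known. Blvra and Slc25a28 were named as relatives of members, outside the rule that follows. All members are named; of the other lists, up to 5 genes per comparison were eligible, those with the largest log2 fold change among genes passing the test, averaging at least 10 CPM in the higher group and not overlapping between groups.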

Additional observations from a re-analysis of the deposited data

How the results depend on the processing

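Over 760 combinations of a gene, a comparison and an alternative setting, 669 kept their direction and their side of the threshold, 51 lost the call, 15 gained one and 25 turned sign. Leaving out 1 library gave 6 to 8 called members in NHD13 against WT, 5 to 8 in KO against NHD13 (5 without NHD13 replicate 1), 9 in AML against KO and 5 to 7 in KO against WT. Over all genes these fits called from 8174 of 17037 to 9131 of 16805 in NHD13 against WT. They called from 5756 of 17037 to 6339 of 16939 in KO against NHD13. The ranges were 13128 of 16830 to 13347 of 16997 in AML against KO and 5297 of 16928 to 6326 of 16805 in KO against WT. The limma fit on log2(FPKM + 1) without a filter called 4 members in KO against WT, against 7. Over all genes it called 6020 of 33660, against 6025 of 16233. Sign changes were confined to estimates near 0 apart from Slc40a1 in AML against KO (-0.31 with length corrected) and Aco1 in NHD13 against WT, at -0.35 on library totals, -0.34 on log2(FPKM + 0.1), -0.29 on log2(FPKM + 1) with or without the filter, -0.051 with upper-quartile factors and -0.035 to 0.15 with a library left out. Slc40a1 in KO against WT was -0.19 on library totals, -0.18 and -0.12 on the same FPKM scales, -0.0091 with upper-quartile factors, -0.0050 with the 1 CPM filter, and -0.045 to 0.078 with a library left out. Ireb2 in KO against WT was 0.035 with DESeq2, 0.041 with its size factors in edgeR, 0.054 with length corrected and -0.18 to 0.17 with a library left out. Abcb10 in AML against KO was -0.19 with length corrected and -0.082 with upper-quartile factors, and Fth1 in NHD13 against WT was 0.075 with length corrected. The causes were not tested.

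With the replicate number as a block, 6 members were called in NHD13 against WT, where Hmox1 was lost (adjusted p = 0.0575), and 8, 9 and 7 in KO against NHD13, AML against KO and KO against WT, as without it. Of all 16233 genes, the block fit called 8568, 6431, 13238 and 5789 in these comparisons, in the same order. The numbers do not pair the libraries: across 18 same-number pairs the correlation of deviations was -0.09 to 0.11, and 3 of 12 libraries matched their own number best.

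With DMRs of at least 0.3 in difference, members with a DMR numbered 2 in NHD13 against WT (31.7% of all genes), 2 in KO against NHD13 (21.8%) and 0 in AML against KO (37.5%), and 2 with at least 10 CpG sites in KO against NHD13 (37.9%) and 4 in the gene body alone in AML against KO (49.3%). Asking for 10% of the gene under peaks left 2 members in KO leukemia (15.0%). Counting precision limits Hmox1 most, with 44 counts in its lowest library.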

Other observations

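Megakaryocyte and monocyte markers, which are no part of the iron genes, also moved between the groups. All 6 megakaryocyte markers fell in NHD13 below WT, all 6 rose in KO over NHD13 and all 6 fell in AML below KO, also with length corrected, and they summed to 13.7 to 14.6 FPKM in AML, 476 to 482 in KO, 37.7 to 41.1 in NHD13 and 248 to 292 in WT. Of 8 monocyte markers, 3 rose and 5 fell in NHD13 against WT, and 5 rose and 3 fell both in KO against NHD13 and in AML against KO (3 and 4 with length corrected).

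In KO against WT, 8 of the 14 genes of iron-sulfur cluster assembly rose and 1 fell, and 17 of 19 erythroid markers rose and 1 fell. Of all genes, 17.2% rose and 20.0% fell in that comparison. Tfr2 averaged 131 ± 7.10 CPM in KO and 69.3 ± 10.7 CPM in WT, with a log2 fold change of 0.92 ± 0.10, and Fech averaged 98.3 ± 4.40 CPM in KO and 59.0 ± 5.62 CPM in WT, with a log2 fold change of 0.74 ± 0.07 (SE from edgeR, SD over 3 libraries).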
